A study of Homo sapiens with 18 samples.

Results

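The 57 genes described here encode proteins of the kinetochore, the spindle assembly checkpoint, the chromosomal passenger complex, the spindle and mitotic exit. They were taken by gene symbol from a fixed list, and all 57 were found among the 39496 genes of the deposited table. RNA of 2 established human lines of transitional cell bladder cancer, UM-UC-3 and T24, was sequenced after cells had received siNC, a control siRNA, or 1 of the siRNAs siACAT1-1 and siACAT1-2, which target ACAT1, the mitochondrial acetyl-CoA acetyltransferase. The siNC libraries are labelled as wild type and the siACAT1-1 and siACAT1-2 libraries as ACAT1 knockdown, with 3 libraries in each of the 6 groups and no drug or other allele in the labels. The knockdown was transient, and the labels call the libraries of a group biological replicates without saying whether they were separate cultures, so the p-values measure the spread between these libraries, which may be technical. The study asked how ACAT1 acts on the growth and movement of bladder cancer cells.

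The kinetochore is the protein layer that joins a centromere to spindle microtubules. Its inner part, built on the histone variant CENPA, stays on the centromere, while its outer part, with the NDC80 complex at its face, binds the microtubules. Kinetochores without microtubules hold CDC20 in an inhibitory complex with MAD2L1, BUB1B and BUB3, and the anaphase-promoting complex (APC/C) starts chromosome separation once CDC20 is free. Most of these genes are transcribed late in the cell cycle, under the MuvB complex with MYBL2 and FOXM1, so their RNA is abundant in dividing cultures and low in resting ones. In RNA from whole cultures, fewer cells in mitosis and less RNA per mitotic cell cannot be told apart.

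The RNA of most of these genes was lower after ACAT1 knockdown than in control libraries of the same replicate number. In T24 cells the fitted change from siNC was -57% for HMMR, -56.2% for CDC20, -52.5% for CENPA, -52.1% for MKI67, -51.7% for CENPE and -51.1% for AURKA (mean of both siRNAs, with libraries paired by number). BUB3, MAD1L1, CENPQ and CENPT, which act at the same structures, did not pass the test there, with log2 differences between -0.17 and 0.09. In UM-UC-3 cells 2 of the 57 genes passed the test, both lower, against 0.362% of all genes called lower. Their median log2 fold change over the 57 was -0.20. In T24 cells 41 passed, all lower, against 5.2% of all genes called lower, with a median of -0.56. Gene by gene, edgeR called 0 of the 57 for the difference between the lines, where 0.0596% of all genes were called lower. These tests paired the libraries by their replicate number. Without the pairing, edgeR on the genes that passed the filter on low counts called 0 of the 57 for the knockdown. Over both lines it called 0.114% of all genes lower. Other settings called some of the 57, as set out with the tests.

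Between 25163490 and 34417230 reads were counted on genes in each library, and the lowest count of any of the 57 genes in any library was 61, so all 57 passed the filter on low counts. ACAT1 itself was at 14.6 to 47.4 RPKM (reads scaled by exon length and by the library's total count) with siNC and at 0.671 to 3.59 RPKM in the 12 siRNA libraries. KRT8 and KRT18, keratins of simple epithelia, were at 27.8 RPKM or more in every library, whereas CDH1 reached 0.0326 RPKM at most. The other epithelial markers looked at were lower in UM-UC-3 than in T24 cells. EPCAM was at 0 to 0.111 RPKM in UM-UC-3 and 0.656 to 2.7 in T24 cells. KRT7 was at 1.94 to 7.22 and 81.1 to 371 RPKM, and KRT19 at 0.0554 to 0.172 and 1.56 to 31.8 RPKM. Of the urothelial markers, the uroplakin UPK3A reached 0.0599, KRT5 0.037, GATA3 0.371 and UPK2 0.66 RPKM at most. Only PPARG was higher, at 2.9 to 6.23 RPKM in T24 cells, against 0.0876 to 0.448 RPKM in UM-UC-3 cells. KRT20 was not found among the genes of the deposited data. The urothelial markers that were found were thus at 0.66 RPKM at most, except PPARG in T24 cells. The leukocyte and endothelial markers reached 0.188 RPKM at most.

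The promoters of this class of gene are known for 2 short elements, the cell cycle genes homology region (CHR), which the MuvB complex binds, and the CCAAT box, which NF-Y binds. RefSeq promoter sequences (GRCh38.p14, 250 bases before to 50 after the start site) were matched for 46 of the 57 genes and not for BIRC5, BUB3, TTK, KNTC1, CENPH, CENPL, CENPM, AURKA, FOXM1, TPX2 and UBE2C. The core of the CHR, searched as TTTGAA on either strand, was present in 27 of the 46 promoters (58.7%), against 15.2% of all 35116 promoters. The CCAAT box, searched by its 5 letters on either strand, was present in 29 of them (63.0%), against 34.6% of all promoters. Both elements were present in 19 (41.3%), against 5.9%. The windows below, 120 bases each upstream of the gene's first exon in the deposited table, show 5 genes that fell after knockdown and hold both elements, 1 gene (ZW10) that holds both and did not pass the test, and 1 gene (CENPE) that fell and holds neither in this window. They were chosen after the matches and tests were seen. Capitals mark both elements on whichever strand they lie, and in MKI67 the second CHR core and a reversed CCAAT box share bases.
MKI67, chr10:128126424-128126543, minus strand: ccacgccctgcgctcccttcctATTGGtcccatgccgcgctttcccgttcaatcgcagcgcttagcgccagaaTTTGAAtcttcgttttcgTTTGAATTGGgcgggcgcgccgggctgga
CDC20, chr1:43358835-43358954, plus strand: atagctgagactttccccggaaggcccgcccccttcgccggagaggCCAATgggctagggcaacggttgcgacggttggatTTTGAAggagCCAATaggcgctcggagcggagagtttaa
ECT2, chr3:172750562-172750681, plus strand: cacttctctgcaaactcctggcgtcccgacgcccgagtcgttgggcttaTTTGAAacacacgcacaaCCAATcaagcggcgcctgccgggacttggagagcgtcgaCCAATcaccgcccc
TOP2A, chr17:40417951-40418070, minus strand: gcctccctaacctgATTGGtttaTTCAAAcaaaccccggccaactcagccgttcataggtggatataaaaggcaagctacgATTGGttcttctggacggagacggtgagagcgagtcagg
ASPM, chr1:197146695-197146814, minus strand: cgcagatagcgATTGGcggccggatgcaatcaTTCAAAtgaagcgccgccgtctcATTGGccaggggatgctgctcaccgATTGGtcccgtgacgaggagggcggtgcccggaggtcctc
ZW10, chr11:113773812-113773931, minus strand: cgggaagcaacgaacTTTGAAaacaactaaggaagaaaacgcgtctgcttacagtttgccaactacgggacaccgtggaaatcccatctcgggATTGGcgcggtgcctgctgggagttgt
CENPE, chr4:103198410-103198529, minus strand: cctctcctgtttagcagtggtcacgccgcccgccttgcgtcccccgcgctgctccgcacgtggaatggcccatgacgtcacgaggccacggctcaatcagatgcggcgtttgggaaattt
A match to these letters is a description of the window and not a measured binding site. Of the 33 matched promoters of genes that fell (mean of the 4 siRNA comparisons, in the model described next), 23 held the CHR core, and of the 13 of genes that did not pass, 4 did. No test was made of this split.

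The replicate numbers of the labels were taken to pair the libraries within a cell line, which the labels do not state. This choice matters for every comparison here. The 57 genes moved together with the replicate number: in UM-UC-3 cells the median gene was 0.38 below its cell-line mean (log2 CPM, counts scaled to the library total) in the libraries numbered 3, with 4 of 57 genes above that mean, and in T24 cells it was 0.40 below in those numbered 2, with 6 above. The 57 genes together took between 4937 and 9782 CPM in UM-UC-3 libraries and between 2776 and 9389 in T24 libraries, and the lowest library in each line was siACAT1-2 with those same numbers. For the median gene of the 57, the replicate number took 74.9% of the variance between UM-UC-3 libraries and the siRNA 17.7%, against 38.2% and 25.5% for the median of all genes tested. In T24 cells the replicate number took 54.4% and the siRNA 31.8%, against 44% and 25.5%. These are raw shares of the sum of squares. A factor with no effect also takes a share, so the percentages by themselves do not measure an effect of the siRNA. What a number marks (a culture, a day or a transfection) is not given in the labels, and its part in the results was not tested beyond the block described next.

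**Figure D1:**
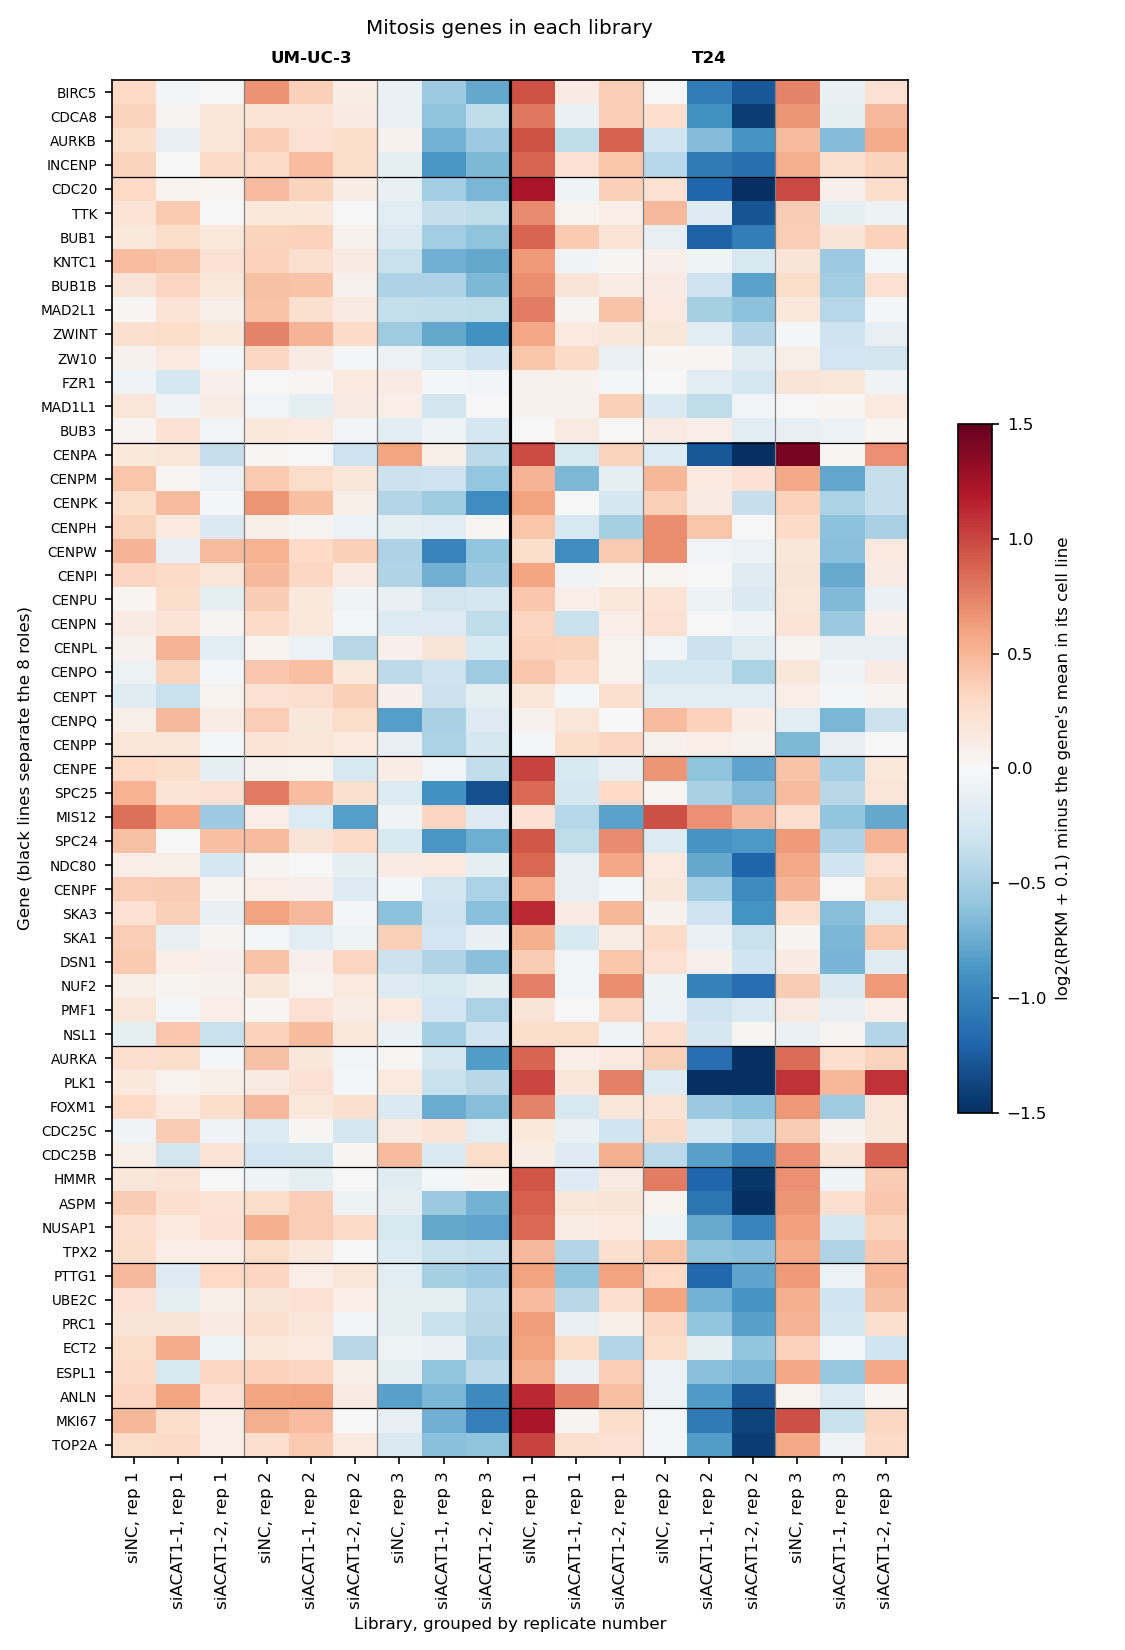
Heat map of the 57 genes (rows, in 8 roles separated by black lines) in the 18 libraries (columns, grouped by cell line and replicate number). Colour is log2(RPKM + 0.1) minus the gene's mean in its cell line. In UM-UC-3 cells the libraries numbered 3 are the lowest for most genes whatever the siRNA, with exceptions such as CENPA and NDC80. In T24 cells, for most genes, the siNC libraries are the highest of each number while the knockdown libraries numbered 2 are the lowest.

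Most of the 57 genes were lower when each siRNA library was set against the siNC library of the same number. Of the 12 such paired differences of log2 CPM per gene (6 in each cell line), 14 genes were lower in 12 of 12 (1.91% of all 20144 genes tested were) and 42 were lower in 10 or more of 12 (11% of all genes). These 14 were BIRC5, KNTC1, ZWINT, CDC20, CENPI, SPC24, SPC25, CENPF, AURKA, FOXM1, TPX2, NUSAP1, PRC1 and MKI67. The median gene of the 57 differed by -0.19 to -0.73 (log2) over the 6 T24 pairs and by -0.07 to -0.32 over the 6 UM-UC-3 pairs, while the median of all genes was between -0.01 and 0.01 in each. The pairs within a cell line share their siNC libraries.

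In the edgeR model of all 18 libraries without a block, 0 of the 57 genes passed an adjusted p of 0.05 (Benjamini-Hochberg over 20144 genes) for the knockdown as a whole, the mean of the 4 comparisons of an siRNA with siNC. In that comparison 0.114% of all genes were called lower. Of the 57, 23 had an unadjusted p under 0.05, all of them lower, against 10.9% of all genes in either direction. In that model 0 also passed in T24 cells, with 0.0347% of all genes called lower, and 0 in UM-UC-3 cells, with 0.00993%. Of the 57, 23 in T24 cells and 0 in UM-UC-3 cells had an unadjusted p under 0.05, against 9.37% and 3.21% of all genes. The model also called 0 of 57 for each siRNA in each line. In UM-UC-3 cells 0.00993% (siACAT1-1) and 0.0397% (siACAT1-2) of all genes were called lower. Of the 57, 0 and 2 had an unadjusted p under 0.05, against 5.34% and 3.86% of all genes. In T24 cells the shares called lower were 0.0546% and 0.164%. There 23 and 8 of the 57 had an unadjusted p under 0.05, against 11.5% and 8.44% of all genes. CENPE had the smallest adjusted p of the 57 in that model, 0.0652 over both cell lines and 0.0539 in T24 cells. DESeq2 without the block called 1 of 57 over both lines, 1 in T24 cells and 0 in UM-UC-3 cells. The shares of all genes called lower were 0.675%, 0.491% and 0.0248%. For siACAT1-1 and siACAT1-2 in T24 cells it called 3 and 2, against 0.918% and 0.665% of all genes called lower. With no filter on low counts, edgeR without the block called 12 of 57 over both lines, 18 in T24 cells and 0 in UM-UC-3 cells. Of all 39496 genes, 0.484%, 0.433% and 0.0304% were called lower. For siACAT1-1 and siACAT1-2 in T24 cells it called 22 and 5 of the 57, against 0.757% and 0.273% of all genes called lower. All genes of the 57 that it called in these comparisons were lower.

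With the replicate number of each cell line as a block, edgeR called 42 of the 57 genes lower over both lines and 0 higher. Of all genes, 6.46% were called lower. All 46 of the 57 with an unadjusted p under 0.05 were lower, and 26.1% of all genes had such a p. The median of the 57 was -0.41 (log2 fold change), against 0.00 for all genes, and without the block it was -0.40. In T24 cells 41 of 57 were called lower with the block, against 5.2% of all genes, with a median of -0.56. In UM-UC-3 cells 2 of 57 were, BIRC5 and SPC25, against 0.362% of all genes, with a median of -0.20. In the account by role that follows, a gene is said to have fallen only where its adjusted p was under 0.05 in the model with the block, and none of these falls passed in the filtered edgeR model without it.

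By siRNA, again with the block, siACAT1-1 lowered 43 of 57 genes in T24 cells (7.31% of all genes were called lower) and siACAT1-2 lowered 26 (3.93%). For UM-UC-3 cells, 0 of 57 were called for siACAT1-1 (1.1% of all genes called lower), and 0 by DESeq2 with the block. Of the 57, 13 had an unadjusted p under 0.05 in edgeR, against 18.5% of all genes, a count near that background. There siACAT1-2 lowered 6 (0.72%), which were MIS12, MKI67, ECT2, SPC25, BIRC5 and CENPK. Both siRNAs were compared with the same siNC libraries of their cell line. Leaving out the siNC library of T24 cells numbered 1, the library with the highest levels of these genes in T24 cells, brought the T24 count from 41 to 24, the siACAT1-1 count from 43 to 28 and the siACAT1-2 count from 26 to 16. The siACAT1-1 count was 26 and 27 without the siACAT1-1 libraries of T24 cells numbered 1 and 3. The 2 calls in UM-UC-3 cells were both lost when any 1 of 10 libraries was left out (UM-UC-3 siNC 1 and 2, siACAT1-1 1 and 3 and siACAT1-2 2 and 3, and T24 siNC 1 and 3 and siACAT1-1 1 and 3). The 6 calls of siACAT1-2 in UM-UC-3 cells came to 0, 1 or 3 without any 1 of 7 UM-UC-3 libraries (siNC 1, 2 and 3, siACAT1-1 3 and siACAT1-2 1, 2 and 3).

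**Figure D2:**
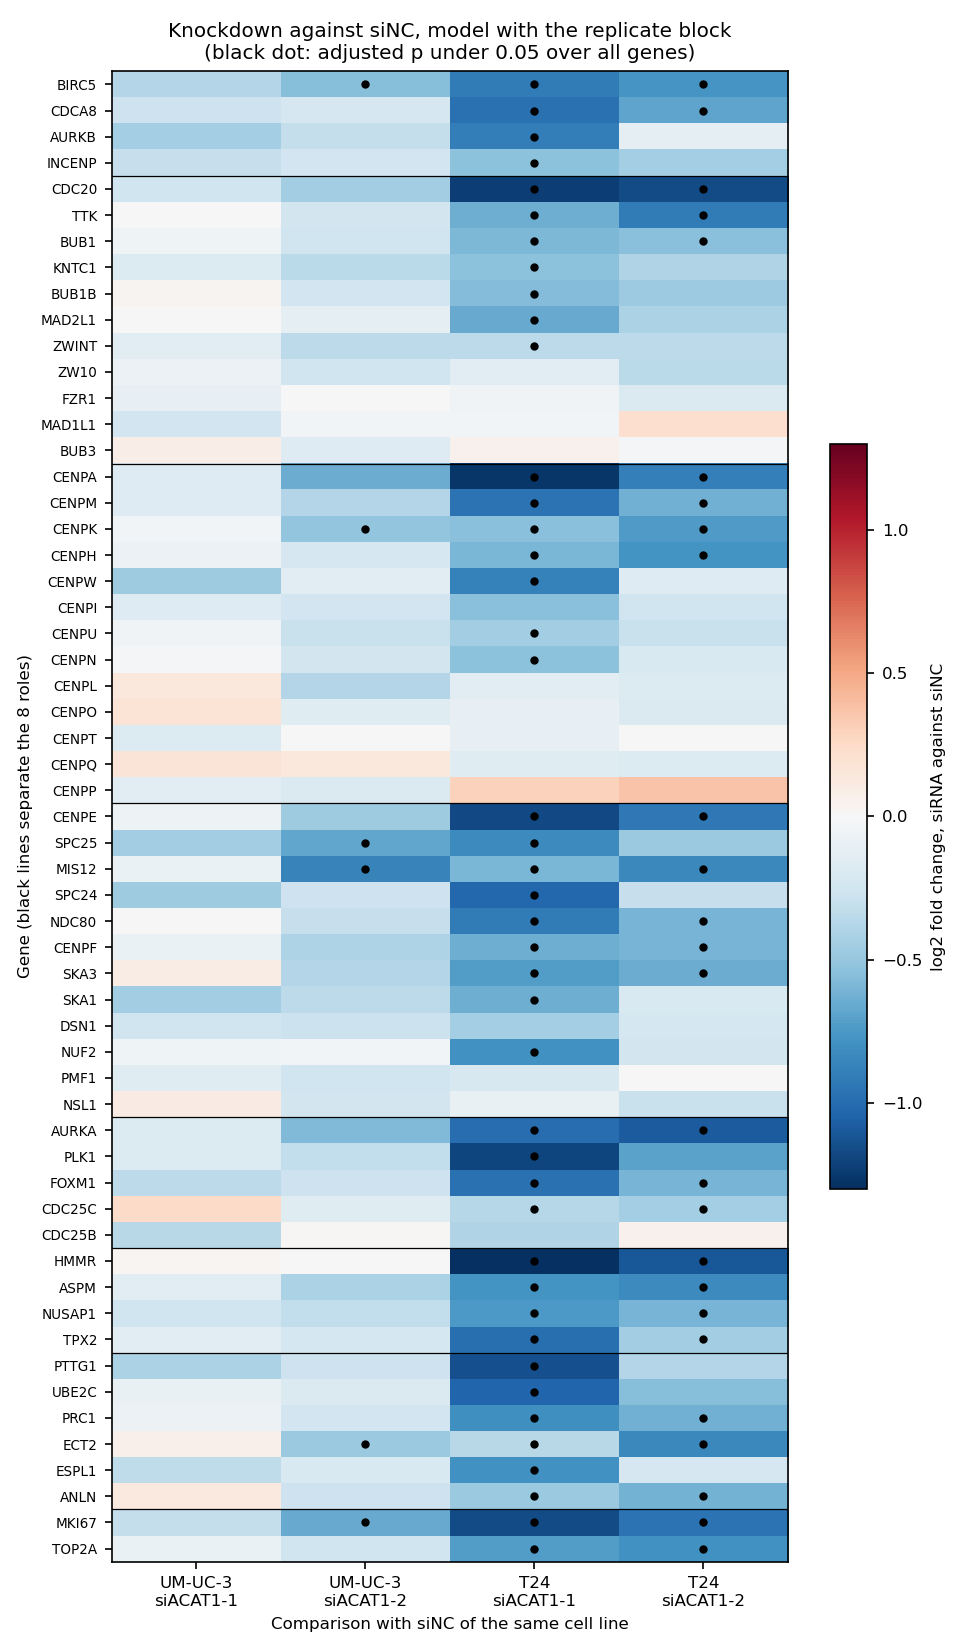
Heat map of the log2 fold change of each siRNA against siNC of the same cell line for the 57 genes, from the edgeR model with the replicate block. Rows are genes in 8 roles and black dots mark an adjusted p under 0.05 over all genes. The dots are 0 and 6 in the UM-UC-3 columns and 43 and 26 in the T24 columns.

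The chromosomal passenger complex (AURKB, INCENP, BIRC5 and CDCA8) corrects faulty microtubule attachments at the inner centromere. Its 4 genes all fell over both cell lines. BIRC5 (survivin, chr17:78214186-78225636) was at 39.6, 51.4 and 30 RPKM with siNC, 31.2, 41 and 21.9 with siACAT1-1 and 32.1, 34.6 and 18.8 with siACAT1-2 in UM-UC-3 libraries 1 to 3. In T24 libraries 1 to 3 it was at 34.8, 17.9 and 30.1 RPKM with siNC, 19.5, 8.58 and 16.6 with siACAT1-1 and 23.1, 7.36 and 20.9 with siACAT1-2. The groups overlapped in both lines, yet BIRC5 was lower than the siNC library of the same number in 12 of 12 differences. Its log2 fold change with the block was -0.65 ± 0.08 (SE, adjusted p = 2.7e-05) over both lines, -0.84 ± 0.11 in T24 cells and -0.46 ± 0.11 (adjusted p = 0.0494) in UM-UC-3 cells.

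CDCA8 (borealin, chr1:37692418-37709719), which holds the complex on the centromere, was at 14.2, 9.73 and 13 RPKM in T24 siNC libraries, 7.63, 4.31 and 7.36 with siACAT1-1 and 10.6, 2.99 and 11.5 with siACAT1-2. Levels in UM-UC-3 cells were 22.2, 20.3 and 16.5 RPKM with siNC, 18.1, 20.3 and 11.6 with siACAT1-1 and 20, 19.2 and 13.5 with siACAT1-2. The siACAT1-1 libraries did not overlap with siNC in T24 cells and did in UM-UC-3 cells. CDCA8 fell by 0.83 ± 0.16 (log2, SE, adjusted p = 0.00272) in T24 cells, and its difference in UM-UC-3 cells was -0.24 ± 0.16. INCENP, the scaffold that binds AURKB, fell by 0.38 ± 0.08 over both lines (adjusted p = 0.00564). AURKB, the kinase of the complex, was at 33.4, 14 and 24 RPKM in T24 siNC libraries, 13.2, 10.9 and 10.9 with siACAT1-1 and 32, 9.32 and 25.4 with siACAT1-2. The siACAT1-1 libraries were all below siNC, whereas the siACAT1-2 libraries numbered 1 and 3 lay close to it.

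Of the 11 genes of the spindle checkpoint and its target, 7 fell over both cell lines (CDC20, TTK, BUB1, BUB1B, KNTC1, MAD2L1 and ZWINT) and 4 did not pass (ZW10, FZR1, MAD1L1 and BUB3). CDC20 (chr1:43358955-43363203) activates the APC/C and is what the checkpoint inhibits. It was at 29.7, 14.8 and 25.2 RPKM in T24 siNC libraries, 12.1, 5.47 and 13.3 with siACAT1-1 and 16.3, 3.38 and 15.2 with siACAT1-2. Its UM-UC-3 levels were 35.2, 39.9 and 26.6 RPKM with siNC, 29.8, 36.2 and 20.1 with siACAT1-1 and 29.1, 30.9 and 17.7 with siACAT1-2. CDC20 was lower than siNC in 12 of 12 differences, and in T24 cells every siACAT1-1 library was below every siNC library. Its log2 fold change was -1.19 ± 0.15 (SE, adjusted p = 7.9e-05) in T24 cells and -0.36 ± 0.15 (adjusted p = 0.31) in UM-UC-3 cells. The study named CDC20 among genes lowered by the knockdown, so its direction here is not independent evidence.

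KNTC1 (ROD, chr12:122527246-122626396), with ZW10 part of the complex that brings dynein and MAD1L1 to kinetochores, was expressed at a low level. It was at 4.75, 3.18 and 3.46 RPKM in T24 siNC libraries, 2.89, 2.87 and 2.02 with siACAT1-1 and 3.03, 2.53 and 2.94 with siACAT1-2. The UM-UC-3 levels were 5.37, 4.96 and 3.04 RPKM with siNC, 5.22, 4.59 and 2.31 with siACAT1-1 and 4.55, 4.23 and 2.23 with siACAT1-2. All T24 siRNA libraries were below all T24 siNC libraries, whereas in UM-UC-3 cells the libraries numbered 3 were the lowest in each group. ZWINT, which anchors that complex, fell by 0.29 ± 0.07 over both lines (adjusted p = 0.00738), and ZW10 was at -0.21 ± 0.07 (adjusted p = 0.0504). KNTC1 fell by 0.36 ± 0.08 (log2, SE, adjusted p = 0.00516) over both lines.

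The checkpoint kinases TTK and BUB1 fell by 0.77 ± 0.16 and 0.56 ± 0.13 (log2, SE) in T24 cells, BUB1B (BUBR1) by 0.51 ± 0.13 and MAD2L1 by 0.53 ± 0.11, while their UM-UC-3 differences were -0.07 to -0.16. BUB1B shares 10.2% of its exon bases with the read-through gene BUB1B-PAK6. BUB3 (chr10:123154277-123170467), the WD40 protein that carries BUB1 and BUBR1 to kinetochores, showed no such difference. It was at 2.98, 3.31 and 2.75 RPKM in T24 siNC libraries, 3.3, 3.23 and 2.82 with siACAT1-1 and 2.98, 2.68 and 3.06 with siACAT1-2. For UM-UC-3 cells the values were 4.25, 4.64 and 3.67 RPKM with siNC, 4.83, 4.57 and 3.94 with siACAT1-1 and 4.02, 4.02 and 3.45 with siACAT1-2. The groups overlapped in both lines, and the log2 difference over both lines was -0.01 ± 0.07 (SE, adjusted p = 0.964). The values of MAD1L1, the partner of MAD2L1, and FZR1, the other APC/C activator, were -0.02 ± 0.06 and -0.09 ± 0.07 (adjusted p = 0.868 and 0.477).

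Of the 13 inner kinetochore genes 7 fell over both cell lines (CENPA, CENPM, CENPK, CENPH, CENPW, CENPU and CENPN), and CENPI, CENPL, CENPO, CENPP, CENPQ and CENPT did not pass. CENPA (chr2:26764289-26801067), the centromeric histone, was at 7.71, 3.33 and 10.5 RPKM in T24 siNC libraries, 3.26, 1.54 and 3.91 with siACAT1-1 and 4.88, 1.09 and 6.27 with siACAT1-2. Levels in UM-UC-3 cells were 12.7, 11.6 and 17.2 RPKM with siNC, 13, 11.4 and 12.1 with siACAT1-1 and 8.99, 9.2 and 8.68 with siACAT1-2. CENPA moved little with the replicate number in UM-UC-3 cells (3.12% of the variance, against 80.8% for the siRNA), and all siACAT1-2 libraries were below all siNC libraries. The log2 fold change was -1.08 ± 0.15 (SE, adjusted p = 0.00017) in T24 cells and -0.41 ± 0.14 (adjusted p = 0.2) in UM-UC-3 cells. CENPA shares 7.0% of its exon bases with SLC35F6 on the same strand.

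CENPK (chr5:65517766-65563171) belongs to the CENPH, CENPI, CENPK and CENPM subcomplex that bridges the centromere to the outer kinetochore. It was at 15.6, 13.1 and 13 RPKM in T24 siNC libraries, 10.2, 11.1 and 7.31 with siACAT1-1 and 8.6, 7.99 and 8.04 with siACAT1-2. Its UM-UC-3 levels were 10.3, 13.5 and 6.22 RPKM with siNC, 11.8, 11.7 and 5.83 with siACAT1-1 and 8.3, 9.02 and 4.4 with siACAT1-2. The T24 siRNA libraries all lay below the T24 siNC libraries, and the UM-UC-3 groups overlapped. CENPK fell by 0.64 ± 0.10 (log2, SE, adjusted p = 0.00063) in T24 cells, and in UM-UC-3 cells it fell with siACAT1-2, by 0.51 ± 0.12 (adjusted p = 0.0398), but not with siACAT1-1 (-0.04 ± 0.12). Its partners CENPH and CENPM fell by 0.69 ± 0.12 and 0.79 ± 0.14 in T24 cells, while CENPI was at -0.40 ± 0.16 (adjusted p = 0.111). Of the other inner genes, CENPW, a histone-fold protein, and CENPN, which reads CENPA nucleosomes, fell by 0.41 ± 0.11 and 0.25 ± 0.08 over both lines, and CENPL, the partner of CENPN, and CENPT were at -0.14 ± 0.07 and -0.07 ± 0.07.

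The CENPO, CENPP, CENPQ and CENPU proteins form another subcomplex, in which only CENPU fell, by 0.27 ± 0.08 (log2, SE, adjusted p = 0.0251) over both lines. CENPQ (chr6:49463378-49493107) was at 13.7, 18.2 and 11.7 RPKM in T24 siNC libraries, 14.8, 16.7 and 8.12 with siACAT1-1 and 13, 14.1 and 10.4 with siACAT1-2. The UM-UC-3 levels were 15.8, 19.2 and 8.29 RPKM with siNC, 20.8, 16.7 and 10.5 with siACAT1-1 and 16, 18 and 12.9 with siACAT1-2. All groups overlapped, and the log2 difference was -0.01 ± 0.09 (adjusted p = 0.995), the largest p of the 57. CENPP (chr9:92325484-92620533) was at 3.23, 3.42 and 2.02 RPKM in T24 siNC libraries, 3.96, 3.51 and 3.01 with siACAT1-1 and 4.13, 3.44 and 3.28 with siACAT1-2. It was the only gene of the 57 with a log2 difference above 0 over both lines, 0.09 ± 0.08 (adjusted p = 0.575). CENPO, CENPP, CENPU and also CENPN and CENPT share 10.8% to 38.0% of their exon bases with another gene on the opposite strand (ADCY3, IPPK, PRIMPOL, CMC2 and TSNAXIP1), and as the strand setting of the counting is not given in the sources used here, their values are uncertain.

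Of the 12 genes of the outer kinetochore and its corona, 9 fell over both lines (CENPE, SPC25, MIS12, SPC24, NDC80, CENPF, SKA3, SKA1 and DSN1). CENPE (chr4:103105806-103198409) is the kinesin that carries chromosomes to the spindle equator. It was at 21.3, 16.7 and 14.1 RPKM in T24 siNC libraries, 8.86, 6.88 and 7.31 with siACAT1-1 and 9.67, 6.01 and 11.7 with siACAT1-2. For UM-UC-3 cells the values were 23.8, 20.3 and 21 RPKM with siNC, 23.3, 20.1 and 18.9 with siACAT1-1 and 17.5, 16.4 and 15 with siACAT1-2. The T24 siRNA libraries were all below the T24 siNC libraries, and in UM-UC-3 cells only those of siACAT1-2 were. CENPE fell by 1.05 ± 0.13 (log2, SE, adjusted p = 4.3e-05) in T24 cells, and its difference in UM-UC-3 cells was -0.26 ± 0.13 (adjusted p = 0.393).

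SPC25 (chr2:168834132-168913371), a subunit of the NDC80 complex, fell in both cell lines. It was at 56.6, 31.9 and 43.5 RPKM in T24 siNC libraries, 26, 22.3 and 23.4 with siACAT1-1 and 38.6, 20 and 35.6 with siACAT1-2. Levels in UM-UC-3 cells were 20.3, 24.3 and 12.3 RPKM with siNC, 16.3, 19.6 and 7.48 with siACAT1-1 and 16.6, 16.7 and 5.64 with siACAT1-2. The T24 siACAT1-1 libraries were all below siNC, and the other groups overlapped with siNC though 12 of 12 differences were negative. The log2 fold change was -0.65 ± 0.13 (SE, adjusted p = 0.00306) in T24 cells and -0.56 ± 0.13 (adjusted p = 0.0495) in UM-UC-3 cells, the largest UM-UC-3 fall of the 57 genes. Of the other subunits, NDC80 fell by 0.75 ± 0.14 and SPC24 by 0.66 ± 0.14 in T24 cells, and NUF2 fell in T24 cells, by 0.51 ± 0.14 (adjusted p = 0.0232), but not over both lines (-0.28 ± 0.10, adjusted p = 0.0665).

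In the MIS12 complex, which links the inner kinetochore to NDC80, MIS12 and DSN1 fell over both lines, by 0.60 ± 0.10 and 0.31 ± 0.09 (log2, SE, adjusted p = 0.00068 and 0.0322), and the other subunits NSL1 and PMF1 were at -0.13 ± 0.11 and -0.16 ± 0.08. PMF1 shares 23.3% of its exon bases with the read-through gene PMF1-BGLAP. The corona protein CENPF fell by 0.43 ± 0.08 over both lines, and SKA1 and SKA3, which keep kinetochores on shrinking microtubules, by 0.40 ± 0.12 and 0.41 ± 0.10. MIS12 did not follow the replicate numbers the way most of the 57 genes did. It was at 14.5, 24.3 and 14.8 RPKM in T24 siNC libraries, 9.19, 20 and 8.21 with siACAT1-1 and 7.05, 17.4 and 7.24 with siACAT1-2, so that it was highest in the libraries numbered 2, where most of the 57 genes were lowest. CENPH and CENPQ were also highest in the libraries numbered 2 of each T24 group. For correlations, each log2 CPM was taken as its deviation from the mean of its own group, which removes differences between siRNAs and cell lines. Across the 18 libraries, the median correlation of these deviations over all 1596 pairs of genes was 0.67. This is Pearson's r and a description, since libraries share replicate numbers. The median correlation of MIS12 with the others was -0.57 and that of CENPH was -0.23. MIS12 shares 9.5% of its exon bases with DERL2 on the opposite strand.

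Of the 5 genes of mitotic entry, AURKA, PLK1 and FOXM1 fell over both lines, and the phosphatases CDC25B and CDC25C, which activate CDK1, did not pass (-0.17 ± 0.10 and -0.18 ± 0.07). CDC25C fell in T24 cells, by 0.41 ± 0.10 (adjusted p = 0.0157), and was at 0.04 ± 0.10 in UM-UC-3 cells. It shares 9.6% of its exon bases with FAM53C on the opposite strand, which had 18275 counts in total against 16485 for CDC25C. FOXM1 (chr12:2857681-2877155), a transcription factor of late cell cycle genes, was at 16.3, 11.2 and 15.3 RPKM in T24 siNC libraries, 8.2, 6.56 and 6.66 with siACAT1-1 and 10.9, 6.28 and 11 with siACAT1-2. Its UM-UC-3 levels were 22.7, 25.9 and 15.8 RPKM with siNC, 20.3, 20.6 and 10.9 with siACAT1-1 and 22.1, 21.8 and 11.8 with siACAT1-2. FOXM1 was lower than siNC in 12 of 12 differences, with no overlap in T24 cells. It fell by 0.78 ± 0.11 (log2, SE, adjusted p = 0.00012) in T24 cells and was at -0.31 ± 0.11 (adjusted p = 0.198) in UM-UC-3 cells. FOXM1 shares 15.9% of its exon bases with ITFG2 on the opposite strand, which leaves its counts uncertain.

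AURKA (Aurora A, chr20:56369389-56392337), the kinase of centrosomes and spindle poles, was at 21.7, 15.1 and 21.1 RPKM in T24 siNC libraries, 12.6, 5.29 and 14.1 with siACAT1-1 and 13.1, 3.41 and 14.9 with siACAT1-2. The UM-UC-3 levels were 18.9, 21.5 and 16.1 RPKM with siNC, 19.1, 17.8 and 13.3 with siACAT1-1 and 15.7, 15.4 and 8.86 with siACAT1-2. All T24 siRNA libraries lay below the T24 siNC libraries, with those numbered 2 far below the others. AURKA fell by 1.03 ± 0.17 (log2, SE, adjusted p = 0.0007) in T24 cells and was at -0.38 ± 0.17 (adjusted p = 0.332) in UM-UC-3 cells. PLK1, which acts at each step of mitosis, fell by 0.95 ± 0.21 (adjusted p = 0.00619) in T24 cells. PLK1 shares 11.6% of its exon bases with a transcript on the opposite strand.

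The 4 spindle assembly genes (NUSAP1, TPX2, ASPM and HMMR) all fell over both lines and, with each siRNA, in T24 cells. In UM-UC-3 cells 0 of the 4 passed. TPX2 (chr20:31739271-31801805), which activates AURKA on the spindle, had the highest siNC level of the 57 in UM-UC-3 cells. It was at 145, 138 and 152 RPKM in T24 siNC libraries, 75.8, 67.9 and 75.5 with siACAT1-1 and 122, 66.5 and 137 with siACAT1-2. For UM-UC-3 cells the values were 147, 148 and 106 RPKM with siNC, 131, 137 and 97.1 with siACAT1-1 and 131, 123 and 95.9 with siACAT1-2. TPX2 was lower in 12 of 12 differences, but in T24 cells its siACAT1-2 libraries spread from close to siACAT1-1 to just under siNC. It fell by 0.71 ± 0.12 (log2, SE, adjusted p = 0.0007) in T24 cells. ASPM, which focuses spindle poles, fell by 0.80 ± 0.14 there (adjusted p = 0.00135).

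NUSAP1 (chr15:41332694-41381050), which bundles spindle microtubules, was at 62.1, 33 and 52.6 RPKM in T24 siNC libraries, 37.2, 20.3 and 28.9 with siACAT1-1 and 38.1, 17.3 and 43.3 with siACAT1-2. Levels in UM-UC-3 cells were 101, 123 and 71.9 RPKM with siNC, 94.5, 110 and 49.8 with siACAT1-1 and 98.5, 104 and 49.1 with siACAT1-2. The groups overlapped in both lines, and the replicate number took 87.9% of its variance in UM-UC-3 cells. NUSAP1 fell by 0.68 ± 0.11 (log2, SE, adjusted p = 0.00072) in T24 cells and was at -0.29 ± 0.11 (adjusted p = 0.254) in UM-UC-3 cells.

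HMMR (chr5:163460203-163491945), a spindle pole protein that binds TPX2, gave the largest difference between the cell lines. It was at 42.3, 37.5 and 35.5 RPKM in T24 siNC libraries, 19.3, 9.56 and 21 with siACAT1-1 and 24.1, 7.96 and 28.7 with siACAT1-2. Its UM-UC-3 levels were 87.2, 74.3 and 68.4 RPKM with siNC, 89.6, 69.8 and 76.4 with siACAT1-1 and 78, 77.1 and 79.7 with siACAT1-2. All T24 siRNA libraries were below siNC, and the UM-UC-3 groups overlapped, with 3 of 6 differences negative. HMMR fell by 1.22 ± 0.18 (log2, SE, adjusted p = 0.00028) in T24 cells and was at 0.02 ± 0.18 in UM-UC-3 cells.

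**Figure D3:**
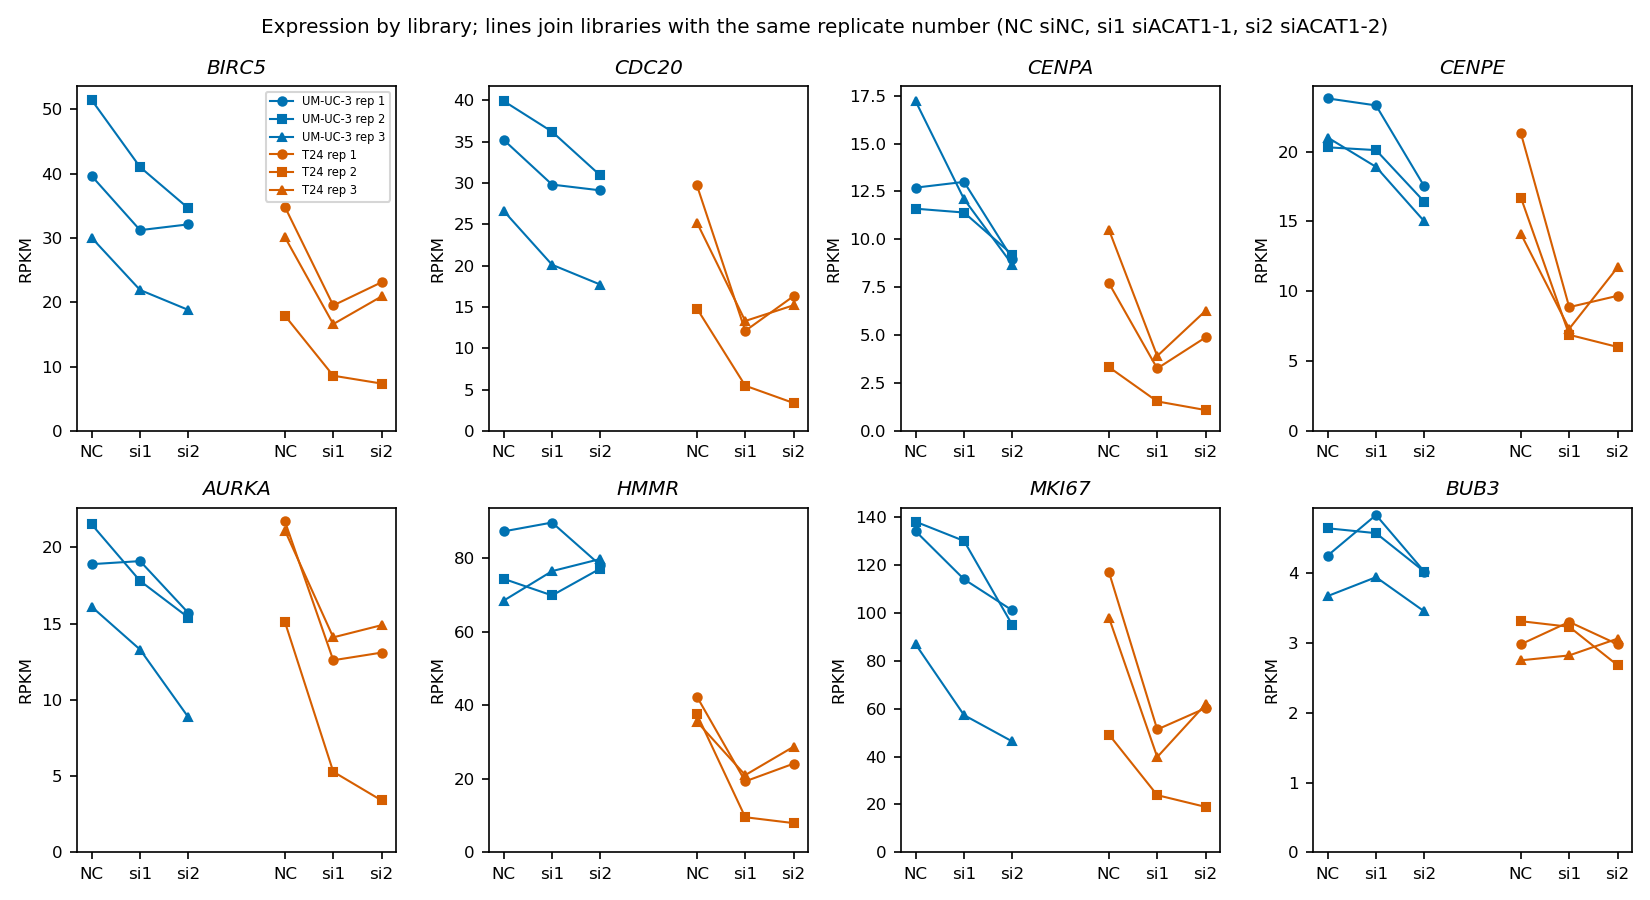
RPKM of 8 genes in each library (vertical axes from 0), with lines joining the libraries of the same replicate number within UM-UC-3 (blue) and T24 (orange) and circles, squares and triangles for replicates 1, 2 and 3. Every T24 line of BIRC5, CDC20, CENPA, CENPE, AURKA, HMMR and MKI67 goes down from siNC to each siRNA, the UM-UC-3 lines of HMMR do not, and BUB3 is nearly level in both cell lines.

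All 6 genes of anaphase, mitotic exit and cytokinesis fell over both lines and in T24 cells. PRC1 (chr15:90966038-90995629), which bundles the central spindle, was at 119, 95.4 and 110 RPKM in T24 siNC libraries, 71.3, 51 and 64 with siACAT1-1 and 82, 43.8 and 91.2 with siACAT1-2. The UM-UC-3 levels were 66.1, 68.3 and 52.4 RPKM with siNC, 66.1, 65.9 and 45.9 with siACAT1-1 and 63.2, 56.3 and 43.3 with siACAT1-2. The T24 siRNA libraries were all below siNC, and the UM-UC-3 groups overlapped with 6 of 6 differences negative. PRC1 fell by 0.71 ± 0.11 (log2, SE, adjusted p = 0.00033) in T24 cells and was at -0.16 ± 0.11 in UM-UC-3 cells. PRC1 shares 7.3% of its exon bases with PRC1-AS1 on the opposite strand.

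ECT2 (chr3:172750682-172821474), the exchange factor that activates RhoA at the cleavage site, separated the siRNAs. It was at 16.4, 13.1 and 13.8 RPKM in T24 siNC libraries, 13.1, 9.79 and 10.6 with siACAT1-1 and 7.95, 7.12 and 8.73 with siACAT1-2. For UM-UC-3 cells the values were 27.1, 25.2 and 21.5 RPKM with siNC, 33.1, 24.9 and 21 with siACAT1-1 and 21.6, 16.9 and 16 with siACAT1-2. The siACAT1-2 libraries were the lowest of each number in both lines. ECT2 fell with siACAT1-2 by 0.84 ± 0.11 in T24 cells and 0.48 ± 0.10 in UM-UC-3 cells (log2, SE, adjusted p = 7.1e-05 and 0.0209), and with siACAT1-1 by 0.36 ± 0.11 in T24 cells (adjusted p = 0.0254), whereas siACAT1-1 gave 0.07 ± 0.10 in UM-UC-3 cells. Of the other 4, the securin gene PTTG1 and the APC/C ubiquitin-conjugating enzyme UBE2C fell by 0.76 ± 0.15 and 0.79 ± 0.16 in T24 cells, and separase (ESPL1) and anillin (ANLN) by 0.51 ± 0.15 and 0.54 ± 0.12.

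MKI67 (Ki-67, chr10:128096659-128126385), which coats mitotic chromosomes and is used as a marker of dividing cells, had the smallest adjusted p of the 57 over both lines. It was at 117, 49.2 and 98 RPKM in T24 siNC libraries, 51.3, 23.9 and 39.8 with siACAT1-1 and 60.2, 19 and 61.8 with siACAT1-2. Levels in UM-UC-3 cells were 134, 138 and 86.8 RPKM with siNC, 114, 130 and 57.3 with siACAT1-1 and 101, 94.9 and 46.3 with siACAT1-2. The groups overlapped in both lines, with the libraries numbered 2 in T24 cells and 3 in UM-UC-3 cells lowest in each group, but 12 of 12 differences were negative. MKI67 fell by 0.77 ± 0.08 (log2, SE, adjusted p = 1.4e-05) over both lines and by 1.06 ± 0.12 in T24 cells, and its UM-UC-3 value was -0.49 ± 0.12 (adjusted p = 0.0588). TOP2A, the topoisomerase that untangles sister chromatids, fell by 0.76 ± 0.13 in T24 cells and was at -0.18 ± 0.13 in UM-UC-3 cells.

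The log2 fold change was lower in T24 than in UM-UC-3 cells for 51 of the 57 genes, with a median difference of -0.38 (log2, T24 minus UM-UC-3, with the block) against 0.01 for all genes. Gene by gene the difference did not pass the adjusted threshold in edgeR. With the block 0 of 57 were called (0.0596% of all genes called lower). Of the 57, 31 had an unadjusted p under 0.05, 30 of them lower, against 9.46% of all genes. Without the block 0 were called (0% of all genes), and 2 had an unadjusted p under 0.05, against 2.57% of all genes. DESeq2 called 0 without the block and 2 with it, CENPE and CDC20, against 0.323% of all genes called lower. In edgeR with the block the count was 2 without T24 siNC 3, siACAT1-1 2 or siACAT1-2 3, and 1 without UM-UC-3 siACAT1-2 1 or T24 siACAT1-2 2. HMMR came closest in edgeR, with -1.23 ± 0.26 (SE, 95% interval -1.83 to -0.64, adjusted p = 0.0635), followed by CENPE at -0.79 (-1.21 to -0.36, adjusted p = 0.112) and CDC20 at -0.83 (-1.34 to -0.33, adjusted p = 0.176). For SPC25, which fell in both lines, the difference was -0.09 (95% interval -0.53 to 0.35), so a difference between the lines was not detectable, and for BIRC5 it was -0.38 (-0.74 to -0.01, adjusted p = 0.459). ACAT1 itself fell by 3.99 ± 0.13 in T24 and by 4.21 ± 0.13 in UM-UC-3 cells (log2, SE), a difference of 0.22 ± 0.19 (adjusted p = 0.765), while the siNC level of ACAT1 was lower in T24 cells.

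**Figure D4:**
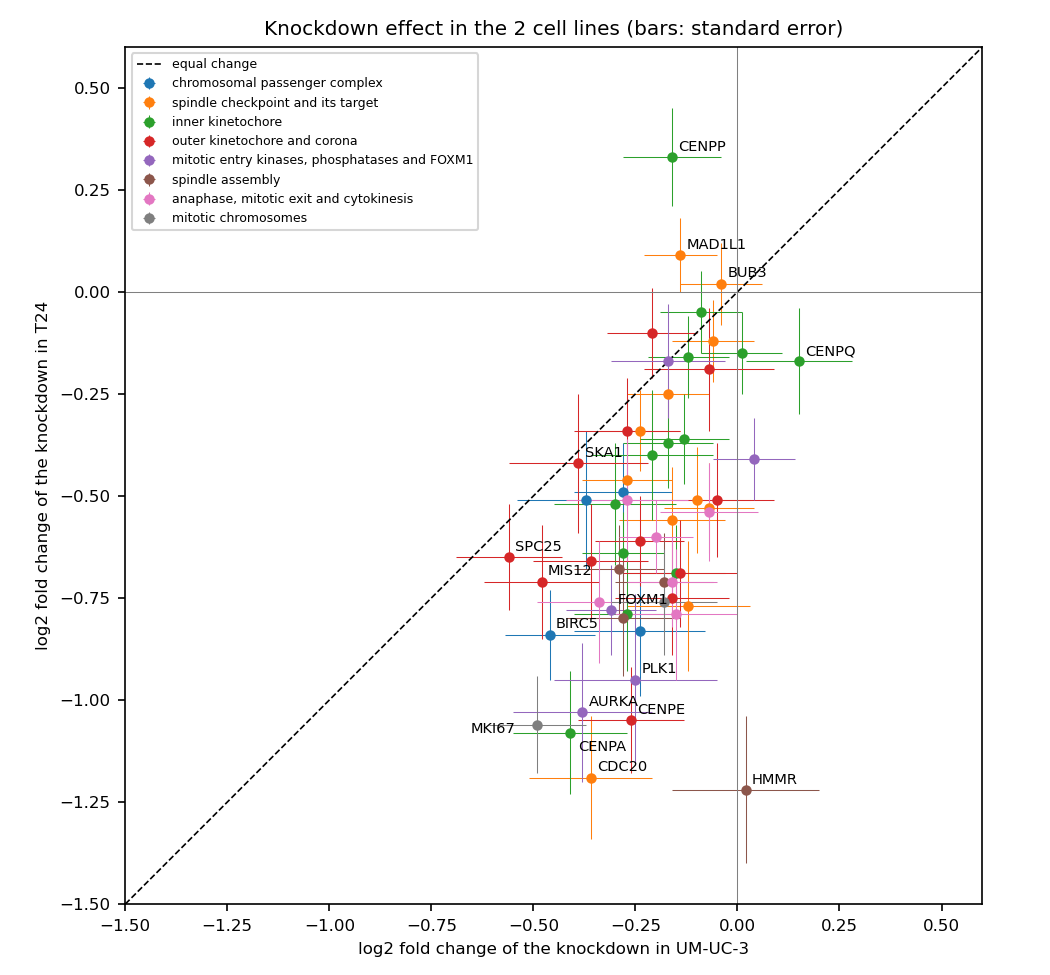
Scatter plot of the log2 fold change of the knockdown (mean of both siRNAs, edgeR with the replicate block) in T24 cells (vertical) against UM-UC-3 cells (horizontal) for the 57 genes, coloured by role, with bars of 1 standard error and a dashed line of equal change. 51 genes lie below the line, HMMR farthest, and SPC25 and SKA1 lie close to it. CENPP, uncertain because of its overlap with IPPK, lies above 0 in T24 cells only.

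The siRNAs differed from each other in 10 of the 57 genes with the block (mean over both lines, siACAT1-2 minus siACAT1-1). AURKB, SPC24, PTTG1, CENPW, CDC25B and MAD1L1 were higher with siACAT1-2 (10.4% of all genes were called higher) by 0.23 to 0.51 (log2), and ECT2, MIS12, CENPK and CENPL were lower (10.2% of all genes called lower) by 0.28 to 0.52. These shares were near or below the background, so the counts are no result about the 57 genes. Without the block 0 of 57 were called (1.38% of all genes called lower), and DESeq2 without the block called 1 (6.56% of all genes called). Of the 57, 1 had an unadjusted p under 0.05 in edgeR (ECT2, adjusted p = 0.0602), against 16.7% of all genes. The count with the block was 5 without T24 siACAT1-1 1 or siACAT1-2 1, 6 without UM-UC-3 siACAT1-1 1 and 17 without T24 siACAT1-2 2. PTTG1 was, in T24 cells, at 27.6, 22.3 and 28.3 RPKM with siNC, 11.9, 7.94 and 17 with siACAT1-1 and 27.6, 10.4 and 25.6 with siACAT1-2. Its siACAT1-2 libraries numbered 1 and 3 were at or near the siNC level, and its siACAT1-1 libraries were all below siNC. ACAT1 itself was lower with siACAT1-2, by 0.62 ± 0.12 (log2, SE, adjusted p = 8.2e-04).

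In the siNC libraries 20 of the 57 genes differed between T24 and UM-UC-3 cells (edgeR, no block, since the replicate numbers lie within a cell line), 10 of them lower in T24 (22% of all genes were called lower) and 10 higher (22.3%), shares near the background. Among checkpoint genes the kinase TTK was 1.39 ± 0.31 lower in T24 cells (log2, SE, 3.44 ± 0.415 against 8.79 ± 1.21 RPKM, mean ± SD, n = 3) and BUB1B 1.25 ± 0.35 lower, while MAD1L1 was 1.52 ± 0.18 higher (21.8 ± 2.18 against 7.41 ± 0.567 RPKM) and ZWINT 1.35 ± 0.39 higher. Among kinetochore genes SKA3, SPC25, DSN1, NSL1, CENPN, CENPP and CENPT were higher in T24 cells and CENPL lower. HMMR, which fell in T24 cells, was with siNC at 38.5 ± 3.48 RPKM there and 76.6 ± 9.59 RPKM in UM-UC-3 cells. Without the UM-UC-3 siNC library numbered 1 the count was 12 in place of 20.

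**Figure D5:**
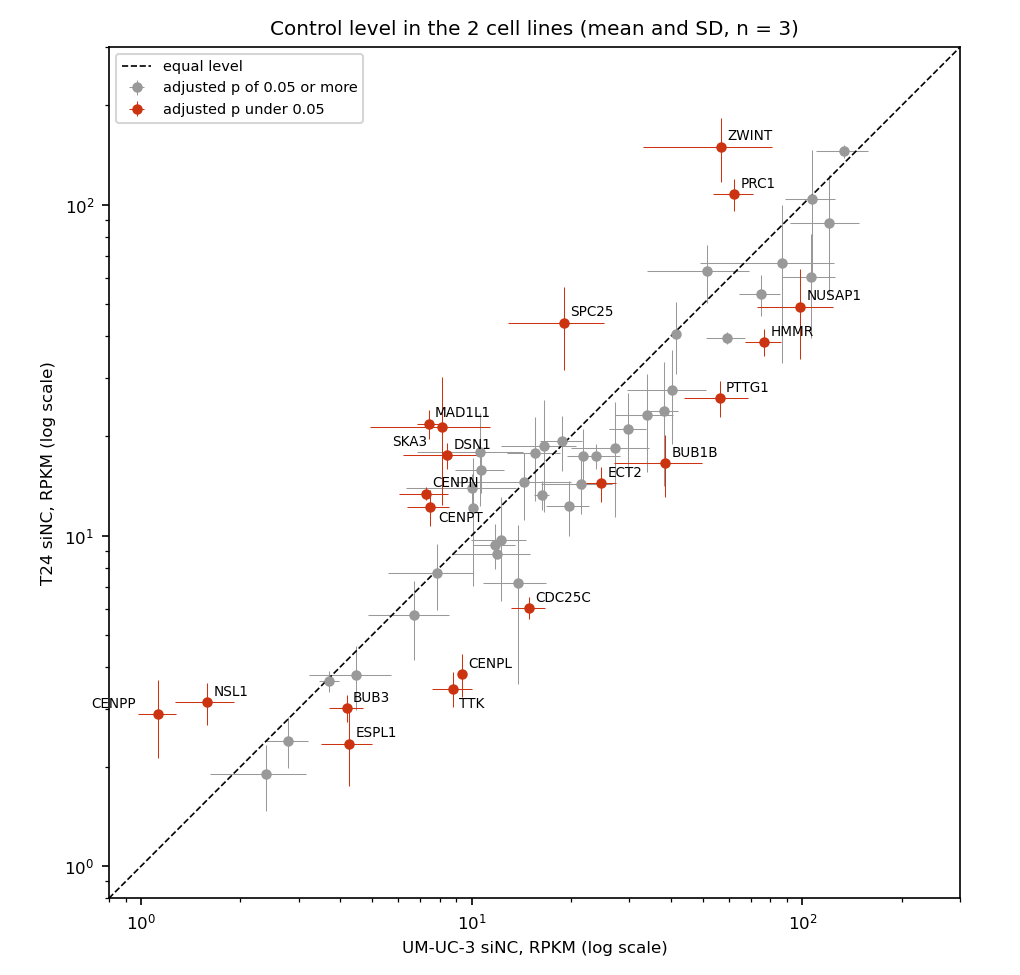
Scatter plot of the siNC level of the 57 genes in T24 (vertical) against UM-UC-3 cells (horizontal), in RPKM on log axes, as mean and SD of 3 libraries, with a dashed line of equal level. Red points are the 20 genes with an adjusted p under 0.05 (edgeR without the block), 10 above the line (ZWINT, PRC1 and MAD1L1 among them) and 10 below it (TTK, CDC25C and BUB1B among them).

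The genes differ in when they are transcribed, and the Seurat package's list of G2/M genes holds 21 of the 57. With the block 5.2% of all genes were called lower in T24 cells and 0.362% in UM-UC-3 cells. Of the 21 listed, 20 fell in T24 cells (median -0.76, log2) and 1 in UM-UC-3 cells (median -0.20). Of the 35 in neither of its lists, 20 fell in T24 cells (median -0.46) and 1 in UM-UC-3 cells (median -0.21). CENPU, the only member of the S-phase list, fell by 0.37 ± 0.11 (log2, SE, adjusted p = 0.0352) in T24 cells.

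Beyond these 57, a list of 79 other mitosis genes, all found and tested, gave 36 called lower and 0 called higher over both lines with the block (median -0.24), against 6.46% of all genes called lower. There were 38 lower in T24 cells, against 5.2% of all genes, and 1 in UM-UC-3 cells, against 0.362%. Without the block edgeR called 0 of 79 in each of these comparisons. Of the 79, 22, 23 and 1 had an unadjusted p under 0.05, against 10.9%, 9.37% and 3.21% of all genes. Over both lines with the block, condensin, which compacts chromosomes, had 7 of 8 genes lower, and the further spindle and cytokinesis genes 11 of 13. The counts were 6 of 15 for centromere and kinetochore assembly, 5 of 10 for cohesin and 4 of 10 for mitotic kinases and the Greatwall pathway. CDCA3, a trigger of mitotic entry, was at 6.79, 2.2 and 6.07 RPKM in T24 siNC libraries, 2.13, 1.04 and 2.24 with siACAT1-1 and 3.2, 1.06 and 3.53 with siACAT1-2, and fell by 1.17 ± 0.12 (log2, SE, adjusted p = 1.6e-05). The spindle gene DLGAP5 was at 30.9, 19.4 and 28.8 RPKM with siNC, 12.8, 6.11 and 16.4 with siACAT1-1 and 16.1, 5.26 and 21.1 with siACAT1-2 in T24 cells. It fell by 1.17 ± 0.14 there and was at -0.27 ± 0.14 in UM-UC-3 cells, so that for DLGAP5 too the siNC libraries were above the siRNA libraries of their number in T24 cells.

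SPAG5 (astrin), which stabilises kinetochore fibres, was at 37.5, 14.5 and 28 RPKM in T24 siNC libraries, 21.2, 8.76 and 17.6 with siACAT1-1 and 25.8, 7.64 and 20.1 with siACAT1-2. DEPDC1 was at 9.63, 7.54 and 9.86 RPKM, 6.41, 4.07 and 7.5, and 5.64, 3.35 and 6.41 in the same groups, with no overlap between siNC and siRNA libraries. SPAG5 fell by 0.67 ± 0.11 (log2, SE) and DEPDC1 by 0.73 ± 0.10 in T24 cells (adjusted p = 0.0009 and 0.00011). NCAPG2, a condensin II subunit, was at 14.4, 9.05 and 12.3 RPKM in T24 siNC libraries, 10.7, 8.81 and 8.28 with siACAT1-1 and 7.28, 4.92 and 6.85 with siACAT1-2. PDS5B, a cohesin regulator, was at 11.4, 5.84 and 9.03 RPKM with siNC, 5.72, 3.76 and 4.24 with siACAT1-1 and 9.01, 4.84 and 8.52 with siACAT1-2 in T24 cells. NCAPG2 was lowest with siACAT1-2 and PDS5B with siACAT1-1, and over both lines siACAT1-2 minus siACAT1-1 was -0.50 ± 0.08 for NCAPG2 and 0.53 ± 0.08 for PDS5B (log2, SE, adjusted p = 0.00031 and 0.00016). Of the 18 subunits and regulators of the APC/C only UBE2S, FBXO5 and ANAPC15 were lower over both lines, with a median of -0.09 over the 18. Of the MuvB subunits LIN9, LIN37, LIN52 and LIN54 and their partner MYBL2, 0 of 5 were called over both lines by edgeR in either model, where 0 had an unadjusted p under 0.05, and MYBL2 fell in T24 cells, by 0.60 ± 0.18 (adjusted p = 0.0358).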

How the data were processed

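RNA from UM-UC-3 and T24 cells transfected with siNC, siACAT1-1 or siACAT1-2 was sequenced in 18 libraries, 3 in each of 6 groups. Per the labels and the submitters' processing notes, reads were trimmed with Trimmomatic 0.36, aligned to GRCh38 with STAR 2.5.3 and counted on gene exons with featureCounts of Subread 1.5.1, and the authors deposited the raw counts without normalization. The authors also deposited RPKM values, which equal the counts scaled by the exon length in the table and the library's total. The annotation release, the strand setting, how multi-mapping reads were handled and whether molecular identifiers were used are not given in the sources used here. Coordinates and exon overlaps are those of the deposited table.

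Groups and replicate numbers were taken from the labels, and columns were matched to libraries by name. Totals were 25163490 to 34417230 counts per library (median 28613163), and the replicate libraries of each group differed beyond sampling noise. In R 4.3.3, edgeR 4.0.16 (TMM, filterByExpr, quasi-likelihood test) was fitted to all 18 libraries with 1 coefficient per group, p-values were adjusted over the 20144 genes kept, with 0.05 as the threshold for a call. The scripts were tested on simulated data. The alternatives were a replicate block, no filter, DESeq2 1.42.0 with and without the block, limma 3.58.1 on log2(RPKM + 0.1) and log2(RPKM + 1), and leaving out each library. The 95% intervals use the residual degrees of freedom (8 with the block).

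Deviations of libraries from their group means were correlated over genes, for pairs from different groups of 1 cell line. With the same number, r was 0.115 to 0.576 (median 0.433) in UM-UC-3 and 0.356 to 0.686 (median 0.524) in T24 cells. With different numbers, r was -0.545 to 0.269 (median -0.11) and -0.567 to 0.21 (median -0.404). The ranges overlapped in UM-UC-3 and not in T24 cells. On this ground the numbers were taken to pair libraries within a cell line. This rests on the values, as the labels do not say what a number marks. The block is therefore printed beside each result it changes.

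Values in every library are given for the genes with the smallest p in each of the 8 roles with the block (2 per role, 1 in the smallest), the 3 with the smallest p for the difference between the lines, CDC20, the 2 with the largest p, and, in part, the 6 other mitosis genes with the smallest p. MIS12 and PTTG1 were added after their values were seen. The genes, lists and rules were chosen with earlier results of these data known.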

Additional observations from a re-analysis of the deposited data

Results flagged for a closer look

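CDC20 and CENPE differed between the cell lines by a test of the difference itself: with the replicate block, DESeq2 gave T24 minus UM-UC-3 as -0.86 (log2; adjusted p = 0.031) for CDC20 and -0.81 (adjusted p = 0.00955) for CENPE, whereas edgeR with the block gave adjusted p values of 0.176 and 0.112 and edgeR without it 1.0 for both. CENPP was lower than siNC in 6 of 6 pairs in UM-UC-3 cells and higher in 6 of 6 in T24 cells, with a difference of 0.50 (log2, edgeR with the block; adjusted p = 0.296), and it shares 38.0% of its exon bases with IPPK on the opposite strand. In T24 cells DESeq2 with the block called CENPP higher, at 0.33 (adjusted p = 0.0497), and edgeR did not (adjusted p = 0.0707). Groups held 3 libraries each, so single libraries were not tested for standing apart.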

How the results depend on the processing

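The counts of calls changed with the replicate block, the filter on low counts and the tool. The medians moved by less than the spread between libraries of a group (SD 0.36, log2) under each alternative run. That SD exceeds the UM-UC-3 medians in size (-0.11 and -0.25 for the siRNAs without the block), so this measure could not show that they held. Leaving out 1 library without the block gave medians of -0.25 to 0.03 for siACAT1-1 in UM-UC-3 cells. For siACAT1-2 in T24 cells they were -0.59 to -0.18. Filtered edgeR without the block called 0 of the 57 genes in each knockdown comparison. With the replicate block edgeR called 42 over both cell lines, 41 in T24 cells, 2 in UM-UC-3 cells, 43 and 26 for siACAT1-1 and siACAT1-2 in T24 cells, 6 for siACAT1-2 in UM-UC-3 cells and 10 between the siRNAs. DESeq2 with the block called 44, 43, 3, 45, 34, 7 and 14, and 2 for T24 minus UM-UC-3. The shares of all genes it called, in either direction, were 14.2%, 12%, 2.08%, 15.8%, 10.3%, 2.7% and 22.1%, and 0.606%. DESeq2 without the block called 1 over both lines, 1 in T24 cells, 3 and 2 for siACAT1-1 and siACAT1-2 in T24 cells and 1 between the siRNAs. With no filter on low counts edgeR without the block called 12, 18, 22, 5 and 3 in the same order, and the cause was not tested. Between the siRNAs, DESeq2 without the block called 6.56% of all genes and edgeR without the filter 2.24%. Limma on log2(RPKM + 0.1) and on log2(RPKM + 1) each called 1 in T24 cells, 1 for siACAT1-1 in T24 cells and 1 between the siRNAs. Fitted alone with the block, a choice made after seeing the data, UM-UC-3 libraries gave 4 calls for siACAT1-1 and 11 for siACAT1-2. The shares of all genes called by limma and in this fit are not given here. Those counts therefore cannot be set against a background and are no result about the 57 genes.

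Leaving out each library in turn without the block gave 0 to 1 calls over both lines, 0 to 2 in T24 cells, 0 to 4 for siACAT1-1 in T24 cells, 0 to 1 between the siRNAs and 12 to 23 for the siNC libraries, where the lowest was without UM-UC-3 siNC replicate 1. With the block it gave 30 to 45 over both lines, 24 to 45 in T24 cells (lowest without T24 siNC replicate 1), 0 to 3 in UM-UC-3 cells, 26 to 46 for siACAT1-1 (27 and 28 without T24 siACAT1-1 replicate 3 and T24 siNC replicate 1) and 16 to 34 for siACAT1-2 in T24 cells, 0 to 7 for siACAT1-2 in UM-UC-3 cells, 0 to 2 for T24 minus UM-UC-3 and 5 to 17 between the siRNAs. Outside the fits without 1 library, 42 values of named genes crossed to the called side under an alternative, 84 stayed on their side and 0 reversed. A blocked comparison of the siNC libraries between the lines could not be fitted, as the numbers lie within a line.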
